A study of Mus musculus with 22 samples.

Results

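Kidneys of mice that received KW6002 without cisplatin were compared with kidneys of vehicle-treated mice, so that the effect of the drug could be read in tissue that had not been injured. The 11 libraries with these labels, 6 from KW6002-treated and 5 from vehicle-treated mice, were taken from the 22 mouse kidney RNA-Seq libraries of the study, and the other 11 came from mice given cisplatin alone (n = 5) or cisplatin with KW6002 (n = 6). All mice were C57Bl6/J males of 8 to 10 weeks. KW6002 was given intraperitoneally at 3 mg/kg each day from day -5 to day 7, its vehicle was 15% DMSO, 15% cremophor and 70% saline, and kidneys were taken on day 8. In the cisplatin arms, cisplatin was given at 3 mg/kg in 6 injections, the last one 72 hours before the kidneys were taken. The column labels carry numbers in the 300s for vehicle 1 to 3 and KW6002 1 to 3 and in the 500s for vehicle 4 and 5, KW6002 4 to 6 and every library of the cisplatin arms. What separates the 2 number series is not stated, and the series was kept as a covariate in each fit of the 11 libraries. The labels do not say that each library is 1 animal, so the p-values measure the spread between these libraries.

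KW6002, or istradefylline, is a selective antagonist of the adenosine receptor encoded by Adora2a, which couples through the stimulatory G protein to adenylyl cyclase and raises intracellular cAMP. In the kidney, adenosine acts through several receptors on vessels, tubules and immune cells, and this one is best known there for its vasodilating and antiinflammatory actions. The kidney also holds a circadian clock, in which CLOCK and ARNTL drive the Per and Cry genes through E-box sequences and are held back by the proteins made from them, while REV-ERB nuclear receptors repress Arntl itself. Many tubular transporters follow this clock and the daily rhythm of corticosteroids.

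Total counts ranged from 26471762 to 40510754 per library and did not differ between the groups (exact permutation test, 2-sided, p = 0.593). Of 32858 listed genes, 16150 passed the filter on low counts and held 99.9% of all counts. The biological coefficient of variation, which is the spread between libraries of a group beyond counting error, was 0.118, and 93.1% of the tested genes had a 95% interval of the log2 fold change that stayed inside a 2-fold change. Proximal tubule markers summed to between 18756 and 20374 CPM (counts scaled to an equal library size) in every library. Vehicle 1 and vehicle 2 stood apart from the other 9 libraries. Their summed fat markers were 733 and 1352 CPM against 62.4 to 584 CPM in the others, and their summed thick ascending limb markers were 4418 and 4810 CPM against 6397 to 8349 CPM. On the first principal component, which held 32.3% of the variance, these libraries lay at -41.44 and -40.02 and the other 9 between -18.1 and 22.95. KW6002 1 had the highest macrophage sum at 301 CPM, followed by vehicle 1 and vehicle 2 at 269 and 252 CPM and the others at 143 to 186 CPM. None of 19 exact permutation tests on single library values (18 marker sums and total counts) passed after Benjamini-Hochberg adjustment, where the smallest raw p was 0.013 for intercalated cells (adjusted p = 0.247). These tests regrouped all 11 libraries and left the number series out. In bulk tissue, fewer cells of a type cannot be told apart from less RNA per cell. The part of fat or nephron make-up in the gene differences that follow was not tested beyond the fits given beside them.

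**Figure D1:**
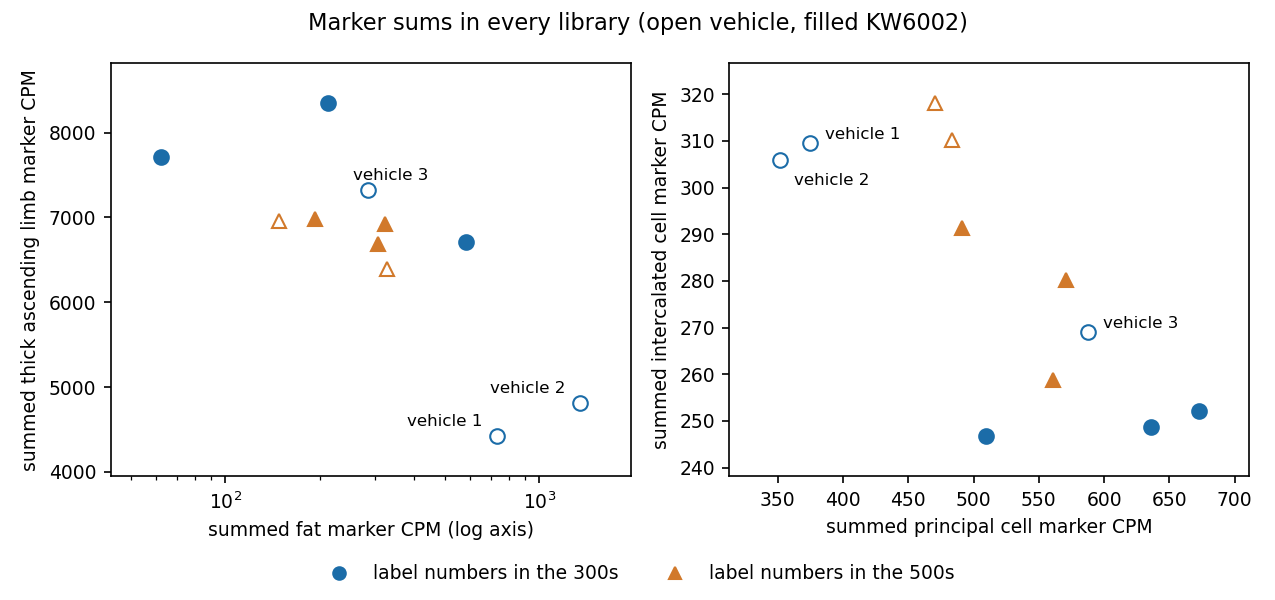
Summed marker CPM in each of the 11 libraries, with fat (log axis) against thick ascending limb markers on the left and principal cell against intercalated cell markers on the right; open symbols are vehicle, filled symbols KW6002, circles label numbers in the 300s and triangles label numbers in the 500s. Vehicle 1 and vehicle 2 have the 2 highest fat sums (733 and 1352 CPM) and the 2 lowest thick ascending limb sums (4418 and 4810 CPM).

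At an adjusted p below 0.05 in edgeR's quasi-likelihood test with Benjamini-Hochberg adjustment, 9 of 16150 genes (0.0557%) differed, of which 4 rose (0.0248%) and 5 fell (0.031%). Mchr1, Tsku and Tspan4 were among those that rose, and those that fell were Stab2, Hist1h1c, Gatm, Pdp2 and Folr1. Under the stricter limit used in the study, a log2 fold change of more than 1 in either direction together with an adjusted p under 0.01, no gene was called by edgeR, although 2327 genes (14.4%) had an unadjusted p below 0.05, and DESeq2 called 4 under that limit. The 9 calls were sensitive to single libraries: without KW6002 2, without KW6002 3, without vehicle 4 or without vehicle 5 none was left, without vehicle 1 there was 1, and without vehicle 3 there were 100. Without vehicle 1 and vehicle 2 together, 4 genes were called, among them Tspan4, Mchr1 and Tgm1, the last a transglutaminase gene that was named after its values were seen. None of the 5 genes that fell was called in that fit (adjusted p from 0.115 to 0.162). The fit kept vehicle 3, vehicle 4 and vehicle 5, and vehicle 3 was then the only vehicle library of its number series. Whether calls were lost there through the make-up of vehicle 1 and vehicle 2 or through fewer libraries was not tested. This limit holds for each result given below without vehicle 1 and vehicle 2. With the summed fat markers as a further covariate, 6 genes were called and 5 of them were among the 9. Of the 24 other settings run, Tspan4 kept its call in 16, Hist1h1c in 12, Pdp2 in 10, Tsku in 9, Gatm in 8, Stab2 in 7 and Folr1 in 6, and Mchr1 kept it in 14 of 23.

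Mchr1, which encodes a G protein-coupled receptor for melanin-concentrating hormone, had the largest difference of the 9. Its level was 1.36, 1.89, 1.13, 0.795 and 0.489 CPM in vehicle 1 to 5, and in KW6002-treated mice it ran from 1.44 to 4.38 CPM with a median of 2.91 CPM. In each number series every KW6002 library lay above every vehicle library, whereas the pooled groups overlapped, and libraries numbered in the 500s were lower in KW6002-treated mice and in vehicle-treated mice. The log2 fold change was 1.46 ± 0.17 (SE, adjusted p = 0.014), with 1.48 in the 300s and 1.42 in the 500s. These are low levels, and the gene (ENSMUSG00000050164, chr15:81235499-81238964, plus strand, mm10) shares no bases with another annotated gene.

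Tsku encodes tsukushi, a secreted leucine-rich proteoglycan, and was at 35.8, 30.6, 33.5, 35 and 29 CPM in vehicle-treated mice. With KW6002 it ran from 38.9 to 57.6 CPM with a median of 52.6 CPM. All 6 KW6002 libraries lay above all 5 vehicle libraries, a separation shown in this direction by 77 of the 16150 genes (0.477%). The log2 fold change was 0.63 ± 0.09 (adjusted p = 0.031) and came to 0.67 (adjusted p = 0.115) without vehicle 1 and vehicle 2. Tsku is at chr7:98350668-98361328 on the minus strand.

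Tspan4, a tetraspanin of the plasma membrane, had the smallest p of all genes. Its levels were 57.8, 50.6, 51.6, 40.6 and 40.2 CPM in vehicle 1 to 5, against 51.4 to 70.3 CPM (median 62.6 CPM) with KW6002. In the 300s and in the 500s the KW6002 libraries were each above the vehicle libraries, as they were for 286 genes (1.77%). The log2 fold change was 0.41 ± 0.05 (adjusted p = 0.014). Tspan4 (chr7:141475240-141493427, plus strand) overlaps Chid1 on the other strand. Strand-specific libraries were made, but the strand setting of the counting is not stated, so reads of genes that overlap on opposite strands may not have been told apart.

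Among the 5 genes that fell, Gatm, which makes the first step of creatine synthesis and is abundant in the proximal tubule, was at 907, 848, 719, 856 and 824 CPM in vehicle-treated mice and between 541 and 681 CPM (median 620 CPM) with KW6002. The groups did not overlap, and the log2 fold change was -0.45 ± 0.07 (adjusted p = 0.034). Separation in this direction, with every KW6002 library below every vehicle library, was found for 152 genes (0.941%). Gatm is at chr2:122594467-122611303.

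Folr1, the folate receptor of the proximal tubule brush border, was the most tightly measured of the 9. Its levels were 524.8, 535.1, 489.6, 528.1 and 523.4 CPM in vehicle 1 to 5 and 424 to 450 CPM (median 435 CPM) with KW6002. No library of one group entered the range of the other, and the log2 fold change was -0.26 ± 0.04 (adjusted p = 0.029). Folr1 (chr7:101858331-101870788) overlaps Anapc15 on the opposite strand.

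Pdp2, a phosphatase that activates the pyruvate dehydrogenase complex, was at 110, 96.7, 99.9, 110 and 114 CPM in vehicle-treated mice and at 80.6 to 94.5 CPM (median 81.8 CPM) with KW6002 (log2 fold change -0.33 ± 0.05, adjusted p = 0.029). Stab2, a scavenger receptor for hyaluronan, went from 11.1, 9.54, 9.33, 9.04 and 8.69 CPM to between 5.96 and 7.07 CPM (median 6.43 CPM; log2 fold change -0.55 ± 0.08, adjusted p = 0.029). The groups did not overlap for either gene. Pdp2 lies at chr8:104591451-104599026 and Stab2 at chr10:86841198-87008025, where it overlaps 5 predicted genes on the other strand. Hist1h1c, a linker histone gene at chr13:23738808-23740367, was at 69.3, 74.9, 58.6, 90.3 and 96.9 CPM and then at 43.6 to 70.8 CPM (median 56.3 CPM; log2 fold change -0.51 ± 0.07, adjusted p = 0.029). Its groups overlapped when pooled and were apart within each number series, as for 362 genes (2.24%). Many histone transcripts carry no poly(A) tail, and the libraries were made by poly-T capture.

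**Figure D2:**
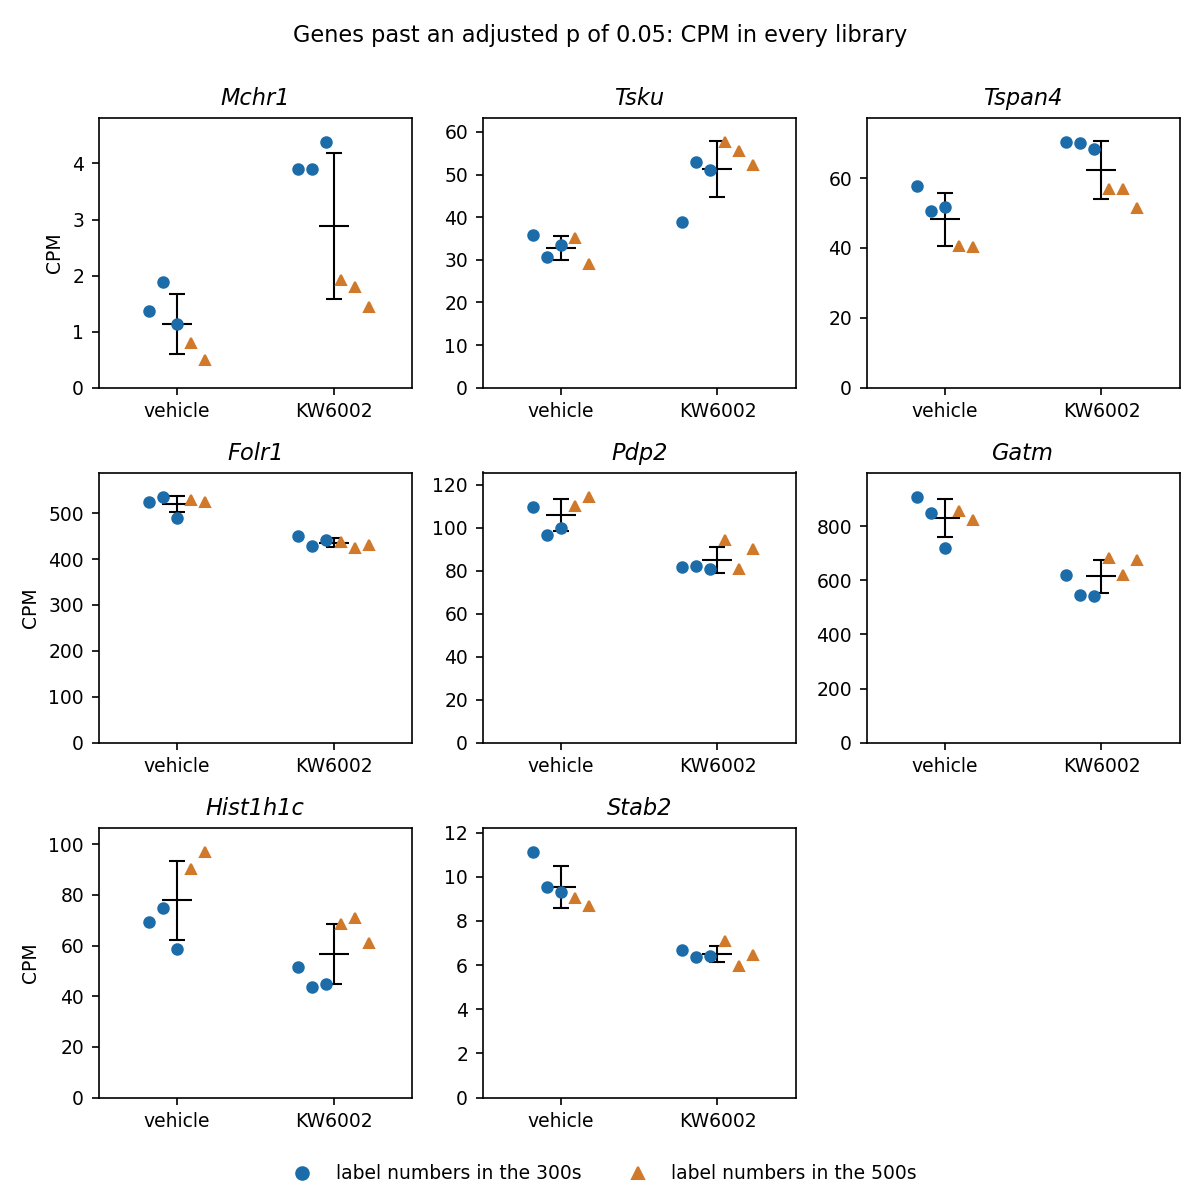
CPM of 8 genes past an adjusted p of 0.05 in each vehicle and KW6002 library, with group mean and SD as bars; circles are label numbers in the 300s and triangles in the 500s. For Tsku, Folr1, Pdp2, Gatm and Stab2 the groups do not overlap, and for Mchr1, Tspan4 and Hist1h1c they are apart only when each number series is read on its own.

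Promoter sequences are shown for Tspan4 and Tsku, the called genes that belong to the list of clock output genes and have a RefSeq entry in the table used (GRCm38.p6), and for Mchr1 and Cry1, which were added after their values were seen. Each runs 5′ to 3′ from 250 bases before to 50 bases after the start of transcription, and capitals mark the letters of a searched motif on either strand. The motifs were CACGTG (E-box), CACGTT (a variant E-box), TGACG (cAMP element core), AGGTCA (ROR element core), ACANNNTGT (glucocorticoid core), TGGAAA (tonicity core) and GCGTG (xenobiotic core), none of which lies inside another although their ends can overlap. The sequences are from chr7:141474986-141475285 (plus strand) for Tspan4, chr7:98361279-98361578 (minus) for Tsku, chr15:81235249-81235548 (plus) for Mchr1 and chr10:85185005-85185304 (minus) for Cry1.
Tspan4: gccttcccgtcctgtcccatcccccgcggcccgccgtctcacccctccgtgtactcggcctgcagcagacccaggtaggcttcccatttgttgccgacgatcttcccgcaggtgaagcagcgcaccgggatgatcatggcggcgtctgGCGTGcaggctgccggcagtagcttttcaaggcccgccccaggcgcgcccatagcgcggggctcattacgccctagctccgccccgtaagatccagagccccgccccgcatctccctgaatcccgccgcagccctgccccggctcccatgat
Tsku: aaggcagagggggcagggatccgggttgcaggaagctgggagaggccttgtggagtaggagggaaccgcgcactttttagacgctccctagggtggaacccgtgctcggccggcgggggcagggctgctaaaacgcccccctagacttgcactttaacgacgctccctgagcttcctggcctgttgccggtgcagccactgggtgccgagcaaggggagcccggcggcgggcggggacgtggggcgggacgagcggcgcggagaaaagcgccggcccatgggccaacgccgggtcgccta
Mchr1: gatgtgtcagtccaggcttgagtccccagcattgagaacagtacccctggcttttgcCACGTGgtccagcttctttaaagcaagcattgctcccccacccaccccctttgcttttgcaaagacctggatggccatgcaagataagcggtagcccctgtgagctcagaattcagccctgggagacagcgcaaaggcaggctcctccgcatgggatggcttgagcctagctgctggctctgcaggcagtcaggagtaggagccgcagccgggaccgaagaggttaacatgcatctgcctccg
Cry1: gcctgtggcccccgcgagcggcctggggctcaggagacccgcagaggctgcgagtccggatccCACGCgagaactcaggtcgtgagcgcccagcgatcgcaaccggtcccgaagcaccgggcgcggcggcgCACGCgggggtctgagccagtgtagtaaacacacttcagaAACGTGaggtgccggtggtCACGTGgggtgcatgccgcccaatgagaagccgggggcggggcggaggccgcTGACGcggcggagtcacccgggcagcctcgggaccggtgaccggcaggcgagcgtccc
Mchr1 held 1 E-box, 193 bases before the start. Cry1 held 1 E-box 60 bases before the start, a variant E-box 79 bases before it, a cAMP element core and 2 xenobiotic cores. Tspan4 held only a xenobiotic core, and the Tsku window held no searched motif. Among all 32851 promoters of the table, 7.15% held an E-box, 4.68% the variant, 20.8% the cAMP element core, 16.3% the ROR element core, 6.85% the glucocorticoid core, 21.4% the tonicity core and 32.4% the xenobiotic core. Of the 25 core clock genes, 19 had a promoter in the table, and an E-box was present in at least 1 promoter of 5 of these. Counted by gene in the same way, 8.09% of all 27025 genes held an E-box. The xenobiotic core was in 17 of the 19 against 35.2% of all genes, and the cAMP element core in 7 against 23%. The variant E-box was in 4 against 5.44%, and the ROR element core in 5 against 18.1%. The tonicity core was in 1 against 23.9%, and the glucocorticoid core in 0 against 7.9%. A match of letters is a description and not a binding site.

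The 30 genes with the smallest p and a mean of at least 1 CPM were split evenly, with 15 higher and 15 lower, and 14 of them did not overlap between the groups, against 1.42% of all genes, a count that the choice by p favours and from which nothing is read. The direction in the 300s and in the 500s was the same for 30 of 30, a pattern partly set by the fit that chose them. Beyond the 9 calls, the list held Gem, a small GTPase of excitable cells (log2 fold change 1.15 ± 0.21, adjusted p = 0.076), Tsc22d1 (0.38 ± 0.06, adjusted p = 0.076), Prex2, a guanine nucleotide exchange factor for Rac (0.44 ± 0.07, adjusted p = 0.065), and Ddc, the decarboxylase that makes dopamine in the proximal tubule (-0.49 ± 0.08, adjusted p = 0.076). Psmd5, a chaperone of proteasome assembly, was at 46.9, 43.6, 47.9, 46.8 and 47.4 CPM in vehicle-treated mice and 51.5 to 57.0 CPM (median 54.4 CPM) with KW6002. The groups did not overlap, with a log2 fold change of 0.22 ± 0.04 (adjusted p = 0.076).

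Of 25 core clock genes tested, 8 were higher and 3 lower at an unadjusted p below 0.05, against backgrounds of 7.16% higher and 7.24% lower over all genes, and the median log2 fold change of the list was 0.06 where that of all genes was 0.002. Of 24 clock output genes, 7 were higher and 1 lower, and Tspan4 and Tsku passed the adjusted threshold. The lists and their members were chosen with earlier results of these data known, and Cry1, Per2 and Tsku were genes of that earlier work. The list counts here and below are therefore a description and not an independent test. Without vehicle 1 and vehicle 2 the counts were 6 and 1 for the core clock and 7 and 1 for the output genes, with backgrounds of 5.69% higher and 6.26% lower. The same backgrounds apply to the lists below in that fit. The hour at which kidneys were taken is not stated, so a difference in hour between the groups or the series was not tested. This holds as well for the corticosteroid genes below.

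Among the repressors of the feedback loop, Cry1 stood at 5.79, 3.07, 9.99, 3.41 and 2.94 CPM in vehicle 1 to 5 and from 6.31 to 17.7 CPM (median 12.9 CPM) with KW6002, and the groups were apart within each series. The log2 fold change of Cry1 was 1.41 ± 0.23, with 1.44 in the 300s and 1.36 in the 500s, and missed the threshold (adjusted p = 0.065). Per2 was at 56.8, 40.4, 70.9, 47.0 and 46.7 CPM and then at 73.9 to 88.0 CPM (median 82.3 CPM), with no overlap (log2 fold change 0.64 ± 0.12, adjusted p = 0.078). Per1, which answers to corticosteroids as well as to the clock, was at 0.76 ± 0.20 (adjusted p = 0.15) on the same scale. Nr1d1, the REV-ERB-alpha repressor of Arntl, ran the other way: it was at 71.4, 93.0, 47.3, 140 and 169 CPM in vehicle-treated mice and from 13.1 to 109 CPM (median 48.99 CPM) with KW6002. Its log2 fold change was -1.38 ± 0.26 (adjusted p = 0.082), with -1.98 in the 300s and -0.66 in the 500s.

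Other clock genes differed with KW6002 in one number series and not, or in the opposite direction, in the other. Ciart, a repressor of the CLOCK-ARNTL pair, was the only gene of 16150 (0.00619%) whose KW6002 effect differed between the series at an adjusted p below 0.05. In the 300s it was at 5.72, 7.08 and 5.62 CPM in vehicle 1 to 3 and at 2.57, 1.79 and 2.06 CPM in KW6002 1 to 3. In the 500s it was at 7.68 and 8.54 CPM in vehicle 4 and 5 and at 20.8, 16.8 and 16.1 CPM in KW6002 4 to 6, so that the KW6002 libraries lay below vehicle in the first series and above it in the other. The log2 fold changes were -1.52 and 1.14, and their difference of -2.66 had an adjusted p of 0.0027. The adjusted p of Ciart ran from 0.0014 to 0.051 over the other settings. Ciart was named after its values were seen. The pooled log2 fold change of -0.26 therefore described neither series. With each series tested on its own in the same fit, 8 genes (0.0495%) passed an adjusted p of 0.05 in the 300s and 71 (0.44%) in the 500s.

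Genes with a similar split, named after their values were seen, did not pass that test. Nfil3, a repressor controlled by the clock, had log2 fold changes of 1.66 in the 300s and 0.16 in the 500s, and Arntl had 0.94 and -0.71. Dbp, an activator driven directly by CLOCK and ARNTL, had -1.23 and 0.26, and Bhlhe41 had -1.39 and -0.22. In the difference between series, 10 of 25 core clock genes were lower in the 300s at an unadjusted p below 0.05 and 4 were higher, against 5.07% and 6.24% of all genes.

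**Figure D3:**
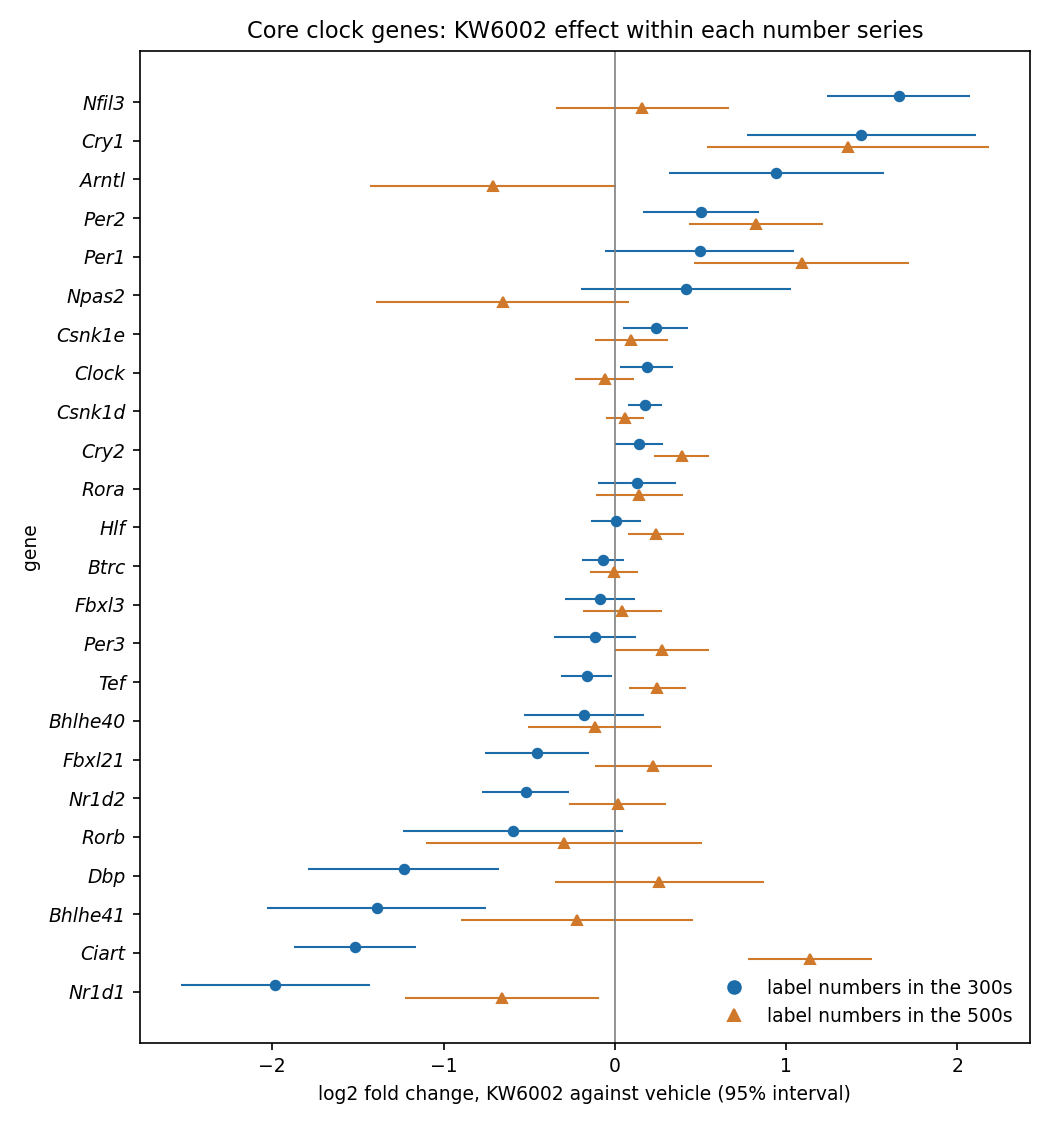
Log2 fold change with 95% interval of 24 core clock genes between KW6002 and vehicle, within the libraries numbered in the 300s (circles) and in the 500s (triangles). Cry1 and Per2 lie above 0 in both, Nr1d1 lies below 0 in both, and Ciart lies at -1.52 in the 300s and 1.14 in the 500s.

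The corticosteroid list held genes induced by these hormones and their receptors and enzymes. Of its 24 genes tested, 8 were higher and none lower at an unadjusted p below 0.05, and the median log2 fold change was 0.20. Over all genes, 7.16% were higher and 7.24% lower. Hsd11b1 (0.33) and Hsd11b2 (0.13), which interconvert active and inactive glucocorticoids, were counted among the 8 and are not on the list as induced genes. Tsc22d3, which encodes the glucocorticoid-induced leucine zipper, was at 43.6, 32.1, 63.3, 61.9 and 54.9 CPM in vehicle 1 to 5 and 68.9 to 115 CPM (median 92.5 CPM) with KW6002. The groups did not overlap, and the log2 fold change was 0.80 ± 0.14 with 0.80 in the 300s and 0.79 in the 500s (adjusted p = 0.076). Sgk1, the kinase through which aldosterone raises sodium transport, was at 86.8, 46.8, 138, 88.9 and 74.4 CPM and then at 112 to 325 CPM (median 174 CPM; 1.16 ± 0.29, adjusted p = 0.15), with overlap. Arrdc2 was at 0.50 ± 0.10 on the log2 scale (adjusted p = 0.085). Other genes listed as induced were not among the 8, such as Fkbp5 (0.22), Klf9 (0.03), Pdk4 (-0.05) and Mt1 (0.003). Mt2 was at -0.77 in the 300s and 0.76 in the 500s. Without vehicle 1 and vehicle 2 the count was 10 higher and none lower, and the median was 0.16. Sgk1, Per1 and Tsc22d3 each belong to more than one list, so that the lists are not independent of each other.

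Hypertonicity response genes, which rise in medullary cells when the tissue around them is concentrated, had 6 higher and 1 lower of 22, with a median of 0.20. The shares over all genes at an unadjusted p below 0.05 were 7.16% higher and 7.24% lower. Within the 300s 6 were higher and 1 lower with a median of 0.34, and within the 500s 2 were higher and none lower with 0.01. Over all genes, 7.67% were higher and 6.55% lower in the 300s, and 5.91% and 7.05% in the 500s. Among osmolyte transporters, Slc38a2 (0.39) was among the 6, and Slc5a3 (0.16), Slc6a12 (0.28) and Slc6a6 (0.04) were not. Akr1b3, the aldose reductase that makes sorbitol as an osmolyte, was at 8.12, 9.43, 12.5, 11.9 and 7.77 CPM in vehicle-treated mice and 12.0 to 50.5 CPM (median 20.7 CPM) with KW6002. The highest value came from KW6002 5 alone, the groups overlapped, and the log2 fold change was 1.23 ± 0.32 (adjusted p = 0.15). Aqp2, the vasopressin-regulated water channel of principal cells, was low in vehicle 1 and 2 (81.1 and 78.8 CPM) against 237, 176 and 180 CPM in vehicle 3 to 5, and ran from 190 to 335 CPM with KW6002. Its log2 fold change was 0.75 (adjusted p = 0.25) and 0.30 (adjusted p = 0.41) without vehicle 1 and vehicle 2. The median of the list was 0.01 in that fit, with 5 higher and none lower.

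In the collecting duct, of 5 intercalated cell markers, none was higher and 3 were lower at an unadjusted p below 0.05. The shares over all genes were 7.16% higher and 7.24% lower. Atp6v1g3, a subunit of the proton pump of these cells, was at 68.2, 62.1, 52.1, 58.3 and 58.3 CPM in vehicle 1 to 5 and 41.5 to 52.0 CPM (median 49.2 CPM) with KW6002, without overlap (log2 fold change -0.32 ± 0.07, adjusted p = 0.13). Atp6v0d2, another pump subunit, was at -0.34 ± 0.07 (adjusted p = 0.099). The summed intercalated markers were 310, 306, 269, 318 and 310 CPM in vehicle-treated mice and 247 to 291 CPM with KW6002, so that the ranges overlapped through vehicle 3. Among 5 principal cell markers, 2 were higher and none lower. The 2 were Hsd11b2 and Aqp2, whose difference was smaller without vehicle 1 and vehicle 2, as given above. Scnn1g, another of the 5, was at -0.13 in the 300s and 0.22 in the 500s. The magnesium channel Trpm6 and parvalbumin were lower among 4 markers of the distal convoluted tubule, with Trpm6 at -0.38 ± 0.11 (adjusted p = 0.18). All 4 were lower within the 300s and none within the 500s at an unadjusted p below 0.05. Over all genes, 6.55% and 7.05% were lower in the 2 series. Trpm6 was at -0.53 in the 300s and -0.20 in the 500s.

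In the list of organic ion transporters, which move drugs and metabolites across the tubular wall, 6 of 32 were higher and none lower, led by Slc22a26 (0.71 ± 0.21, adjusted p = 0.19) and Slc22a19 (0.57 ± 0.17, adjusted p = 0.19). Without vehicle 1 and vehicle 2 the count was 3 of 32. Glucose handling genes had 1 higher and 5 lower of 21. Slc2a2, the basolateral glucose transporter GLUT2, was at 280, 284, 233, 304 and 316 CPM in vehicle-treated mice and 174 to 293 CPM (median 217 CPM) with KW6002. The groups were apart within each series and overlapped when pooled (log2 fold change -0.41 ± 0.08, adjusted p = 0.076). Slc5a2, the apical sodium-glucose transporter SGLT2, was at -0.22 ± 0.06 (adjusted p = 0.15). Without vehicle 1 and vehicle 2, 3 glucose genes were higher and 3 lower. Salt transport genes had none higher and 4 lower of 23. For each of these lists in the fit of all 11 libraries, the shares over all genes were 7.16% higher and 7.24% lower.

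Inflammatory mediators had 7 higher and none lower of 18 tested genes, and 8 of the 26 listed were too low to test. Over all genes the shares were 7.16% higher and 7.24% lower. Ccl5, a chemokine for T cells and monocytes, was below 1 CPM in all vehicle libraries and at 0.675 to 1.36 CPM with KW6002 (0.92 ± 0.27, adjusted p = 0.18). Il34, a ligand of the macrophage growth factor receptor made by tubular cells, was at 0.20 ± 0.07 (adjusted p = 0.21). It was at 0.30 in the 300s and 0.06 in the 500s. Cxcl12 (0.36) was another of the 7, while Cxcl10 (0.10), Ccl2 (0.005) and Il1b (-0.15) were not among them. Tnf and Il6 were too low to test, with 2 to 13 and 0 to 2 counts per library. Within the 300s, 5 of the 18 were higher and none lower at an unadjusted p below 0.05, against 7.67% and 6.55% of all genes. Within the 500s, 2 were higher and none lower, against 5.91% and 7.05%. Without vehicle 1 and vehicle 2 the list had 5 higher and none lower.

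Interferon response genes are induced by cytokines of antiviral and immune defence. In the fit of all 11 libraries, 3 of 35 were higher and none lower, close to the background of 7.16%. Within the 500s, 20 of 35 were higher and none lower at an unadjusted p below 0.05, where 5.91% of all genes were higher and 7.05% lower. Within the 300s, 1 was higher and 4 were lower, with backgrounds of 7.67% and 6.55%. In the difference between series 20 were lower in the 300s and 1 was higher, although none passed the adjusted threshold. Igtp, a GTPase induced by interferon-gamma, had vehicle 4 and 5 were at 12.6 and 12.8 CPM and KW6002 4 to 6 at 19.0, 17.2 and 16.4 CPM, while vehicle 1 to 3 were at 18.6, 15.0 and 15.1 CPM and KW6002 1 to 3 at 16.4, 16.7 and 17.6 CPM. Gbp7, a guanylate-binding protein of the same response, had log2 fold changes of 0.08 in the 300s and 0.39 in the 500s. The vehicle group of the 500s holds 2 libraries, so its level rests on these.

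**Figure D4:**
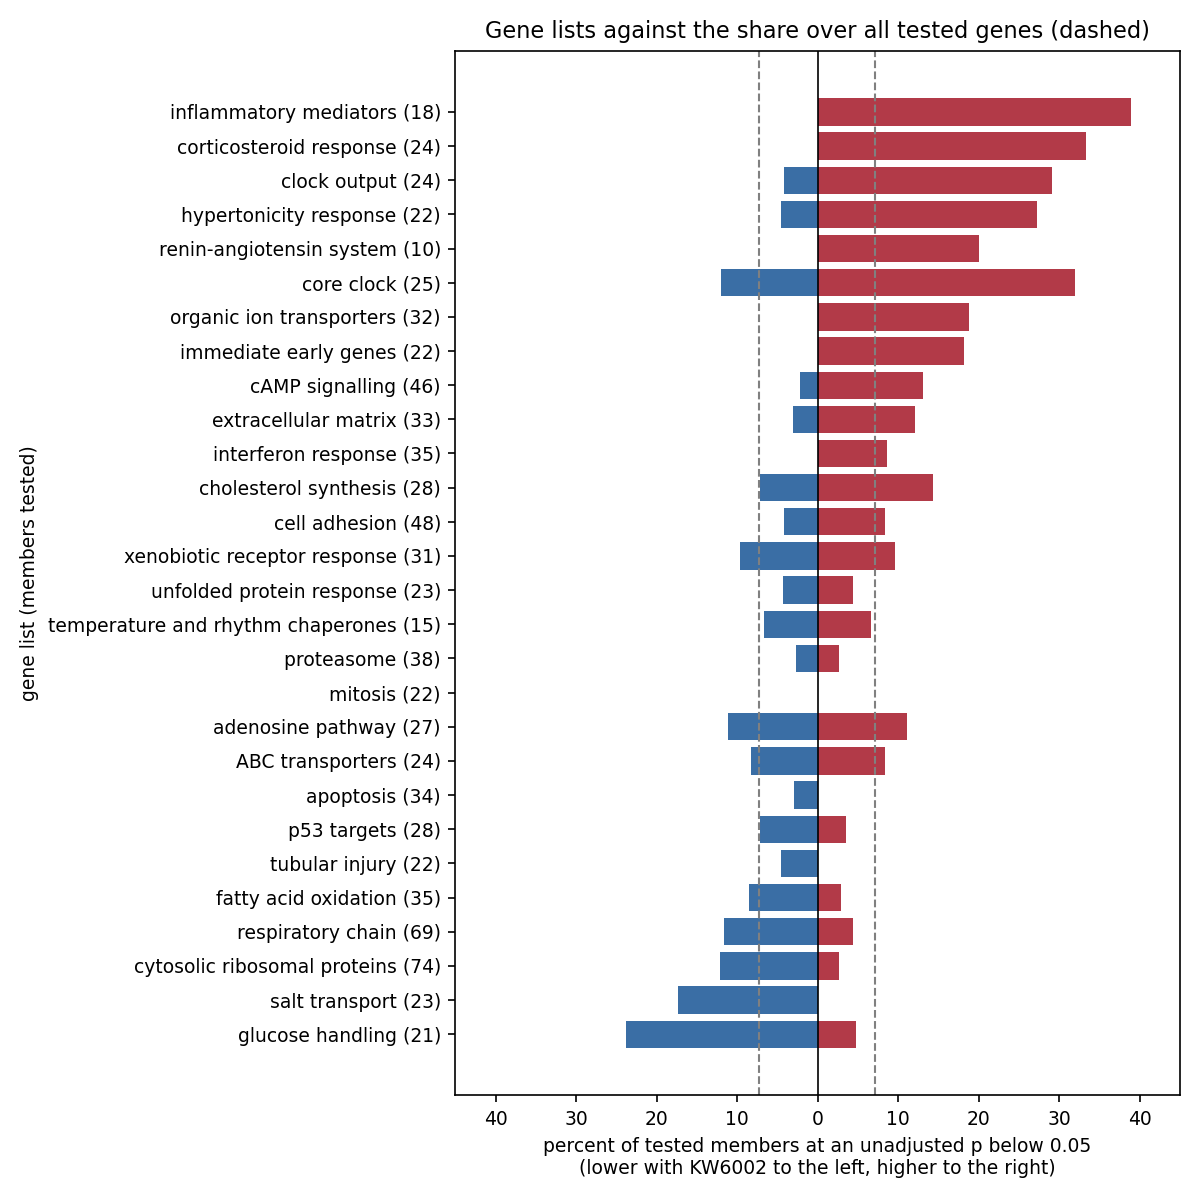
Percent of the tested members of each of 28 gene lists at an unadjusted p below 0.05, with genes lower with KW6002 to the left and higher to the right; dashed lines give the shares over all 16150 genes (7.24% and 7.16%). Inflammatory mediators, corticosteroid response, core clock and clock output genes lie furthest to the right, and glucose handling and salt transport genes furthest to the left. The lists and their members were chosen with earlier results of these data known.

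The gene of the drug target was at a low level. Adora2a, which encodes the receptor that KW6002 blocks, was at 3.60, 2.46, 3.55, 4.73 and 3.27 CPM in vehicle-treated mice and 3.23 to 4.71 CPM (median 3.89 CPM) with KW6002. The ranges overlapped almost entirely, and the log2 fold change was 0.15 with a 95% interval from -0.19 to 0.49 (adjusted p = 0.70). Of 27 genes of the adenosine pathway, 3 were higher and 3 lower (11.1% each) at an unadjusted p below 0.05. Over all genes these shares were 7.16% higher and 7.24% lower. Of 46 cAMP signalling genes 6 were higher (13.0%) and 1 lower (2.17%), with a median of 0.07. The largest of these was Pde8b, a cAMP phosphodiesterase, at 0.36 ± 0.10 (adjusted p = 0.16), and Crtc2, a coactivator of the cAMP-responsive factor CREB, was higher in all 6 KW6002 libraries (0.12 ± 0.04, adjusted p = 0.21).

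Among genes that mark tubular damage, Lcn2, which encodes NGAL, was at 3.03, 3.45, 4.59, 3.41 and 3.85 CPM in vehicle 1 to 5 and 2.77 to 8.80 CPM (median 4.93 CPM) with KW6002, and Havcr1, which encodes KIM1, was at 1.53 to 2.79 CPM and 1.46 to 4.51 CPM. The log2 fold change was 0.52 (95% interval -0.08 to 1.11) for Lcn2 and 0.25 (-0.39 to 0.89) for Havcr1, so the intervals reached 1.11 and 0.89 on that scale. Among 22 tubular injury genes none was higher and 1 lower, among 34 apoptosis genes none was higher and 1 lower, among 22 mitosis genes none was either, and among 28 p53 targets 1 was higher and 2 lower. At the same unadjusted p below 0.05, 7.16% of all genes were higher and 7.24% lower. Bax, which promotes apoptosis, and Bcl2, which opposes it, were at -0.01 ± 0.05 and 0.01 ± 0.05. Hmox1, a heme-degrading enzyme induced by oxidants, was at -0.54 ± 0.22 (adjusted p = 0.29).

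Of 69 respiratory chain genes 3 were higher and 8 lower (11.6%) with a median of -0.04, and 4 of them were lower in every KW6002 library than in every vehicle library, as were 0.941% of all genes. Ndufa6 of complex I was at -0.18 (adjusted p = 0.11). Of 74 cytosolic ribosomal protein genes 2 were higher and 9 lower (12.2%) with a median of -0.03, and Rpl23 was at -0.23 (adjusted p = 0.13). The background at an unadjusted p below 0.05 was 7.16% higher and 7.24% lower.

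KW6002 was then compared in mice that also received cisplatin, in a fit of all 22 libraries. Those kidneys were injured. The log2 fold change of Lcn2, an injury marker, was 8.37 for cisplatin against vehicle and -2.10 for cisplatin plus KW6002 against cisplatin. The study also reports milder kidney dysfunction when KW6002 was added to cisplatin, without a significant change in kidney histology. In tumor-bearing mice it reports less platinum in the kidney with KW6002. How far lesser injury enters the gene differences between those arms was not tested. The libraries of cisplatin plus KW6002 against cisplatin are not shared with the comparison of KW6002 against vehicle, and 10001 of 17131 genes (58.4%) differed there at an adjusted p below 0.05. Cisplatin against vehicle gave 11656 genes (68%) in the same fit, and KW6002 against vehicle gave 40 (0.233%). Nothing is read from the next count, which has no share over all genes beside it. Of the 30 genes with the smallest p for KW6002 alone, 10 had the same direction with cisplatin. Mchr1 was the clearest of these: cisplatin libraries were at 1.39 to 2.92 CPM and those with cisplatin and KW6002 at 5.86 to 8.51 CPM, a log2 fold change of 1.75 ± 0.16 (adjusted p = 1e-08) without overlap. Cry1 (0.49 ± 0.17, adjusted p = 0.016) and Tsku (0.23 ± 0.07, adjusted p = 0.011) also rose with KW6002 in cisplatin-treated mice. Nr1d1 fell there by 0.83 ± 0.22 on the log2 scale (adjusted p = 0.0028).

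The 5 genes that fell with KW6002 alone all rose with KW6002 in cisplatin-treated kidneys. Gatm was at 25.8 to 43.1 CPM after cisplatin and at 141 to 195 CPM with KW6002 (log2 fold change 2.30 ± 0.11, adjusted p = 7.4e-13), both below the 541 CPM of the lowest KW6002 kidney without cisplatin. Stab2 rose by 2.25 ± 0.19 (adjusted p = 1.5e-09), Folr1 by 0.67 ± 0.09 (adjusted p = 1.5e-06), Pdp2 by 0.65 ± 0.07 (adjusted p = 9e-08) and Hist1h1c by 0.37 ± 0.08 (adjusted p = 0.00042). Tspan4, higher with KW6002 alone, fell by 0.34 ± 0.05 (adjusted p = 7.5e-06) when cisplatin was given, and Tsc22d3 fell by 0.53 ± 0.14 (adjusted p = 0.0029). In the test of the effect with cisplatin minus the effect without it, 23 of the 30 genes passed at an adjusted p below 0.05, where 7858 of 17131 genes did (45.9%). The genes had been chosen on 1 side of this difference, and nothing is read from that count. Mchr1 (0.30, adjusted p = 0.35) and Nr1d1 (0.56, adjusted p = 0.17) did not pass it.

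**Figure D5:**
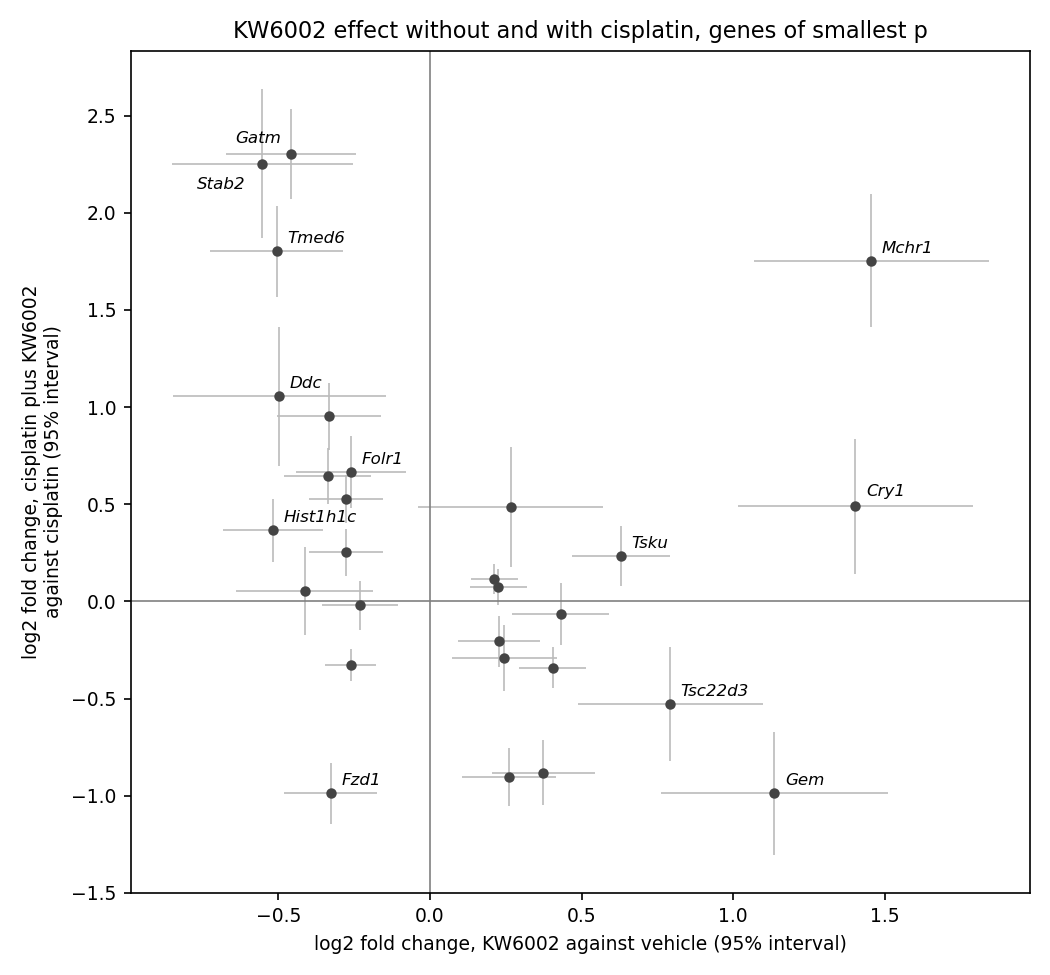
Log2 fold change with 95% interval of KW6002 against vehicle (horizontal) and of cisplatin plus KW6002 against cisplatin (vertical) for 28 of the 30 genes of smallest p, from the fit of all 22 libraries. Mchr1, Cry1 and Tsku lie in the upper right, while Gatm and Stab2, lower with KW6002 alone, lie at 2.30 and 2.25 with cisplatin.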

How the data were processed

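RNA-Seq was performed on mouse kidney in 22 libraries, of which 11 are the subject here. Poly(A) RNA was captured with poly-T beads and made into strand-specific libraries, which were sequenced as single reads of 50 bases. Per the labels, the submitters' processing notes name bcl2fastq 2.17.1.14, STAR, HTSeq 0.6.1p1 and the genome build mm10. The deposited values are raw counts of reads per gene, made by the authors without normalization. The strand setting of the counting is not given in the sources used here. The table also holds 66 columns with no name, which were not used.

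Genes were kept with filterByExpr (minimum count 10, minimum total 15, smallest group 5). Counts were scaled by TMM and fitted with edgeR 4.0.16 (quasi-likelihood F test) in R 4.3.3 with number series and treatment as terms, and p-values were adjusted by Benjamini-Hochberg over all genes tested. CPM are computed from TMM-scaled library sizes. DESeq2 1.42.0 was an alternative. The effect with minus without cisplatin came from a fit of all 22 libraries. Single values per library were compared by exact permutation tests, 2-sided, in which the smallest possible p was 0.0022. The test was checked on simulated data. Replicates of each group differed by more than sampling noise, with a chi-square per degree of freedom of 6.47 or more for each pair. Gene positions are from GENCODE on the same build.

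Genes named were the 30 of smallest p with a mean log2 CPM of at least 0, the genes the study names for kidney, up to 4 members of each list by p with members that define it, and 8 genes of earlier work on these data. The members and lists were chosen with earlier results of these data known. Other settings changed the test, scaling, filter, covariates and libraries. Some results are not reported here.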

Additional observations from a re-analysis of the deposited data

Results flagged for a closer look

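Within groups of 5 or 6 libraries, 10 of 126 tests (7.94%) found a library far from the others of its group, where chance gives about 1 in 20. These were Folr1 in vehicle 3 (490 CPM), Tsku in KW6002 1 (38.9 CPM), Prex2 in KW6002 6 (44.6 CPM), Gabarapl1 in vehicle 3 (805 CPM), Psmd5 in vehicle 2 (43.6 CPM), Akr1b3 in KW6002 5 (50.5 CPM), Hmox1 in KW6002 5 (84.3 CPM) and Nfe2l2 in vehicle 5 (126 CPM). The summed intercalated cell markers of vehicle 3 (269 CPM) and the summed macrophage markers of KW6002 1 (301 CPM) completed them.

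The KW6002 effect with cisplatin minus that without cisplatin passed an adjusted p of 0.05 in edgeR's quasi-likelihood test for 23 of the 30 genes of smallest p, whose choice used 1 side of the difference. On the log2 scale it was above 0 for genes that included Stab2 (2.81), Gatm (2.76), Tmed6 (2.31), Ddc (1.55), Renbp (1.28), Pdp2 (0.98), Folr1 (0.93), Hist1h1c (0.88), Igf1r (0.80), Cdc5l (0.53) and Gabarapl1 (0.47). It was below 0 for Gem (-2.12), Tsc22d3 (-1.32), Tsc22d1 (-1.26), Marveld1 (-1.17), Cry1 (-0.91), Tspan4 (-0.75), Fzd1 (-0.66), Ehhadh (-0.54), Prex2 (-0.50), Rcn2 (-0.43) and Tsku (-0.40). The cisplatin arms held only libraries numbered in the 500s, and the part of the series in these differences was not tested. Ciart differed between the number series, with an effect in the 300s minus that in the 500s of -2.66.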

How the results depend on the processing

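The count of genes at an adjusted p below 0.05, 9 in edgeR's quasi-likelihood test, depended on the settings. It was 360 with DESeq2 (8 of the 9 among them), 210 with no filter, 40 with all 22 libraries (6 of the 9), 47 in the 500s alone (3 of the 9), 0 in the 300s alone and 0 without the number series as covariate. Chosen after seeing the data, the fit without vehicle 1 and vehicle 2 gave 4 genes, as did the fit with the thick ascending limb markers as covariate (3 of the 9 in each). Without vehicle 1 and vehicle 2, vehicle 3 was the only vehicle library numbered in the 300s. Leaving out 1 library gave 0 to 100 genes, with 100 without vehicle 3, 1 without vehicle 1, 5 without KW6002 1, 4, 5 or 6, and 0 without KW6002 2, KW6002 3, vehicle 4 or vehicle 5. Under the stricter limit, where the count was 0, DESeq2 gave 4, no filter 9, all 22 libraries 4 and leaving out 1 library 0 to 3, with 3 without vehicle 3. The count of genes that differed between the series, 1, ran from 1 to 283 when 1 library was left out, with 283 without vehicle 3 and 20 without vehicle 4. The cause was not tested. With the replicate number as a block, 0 genes were called. The numbers were not taken to pair the libraries, which needed a correlation above 0.1 for each number. The correlation of same-numbered deviations was 0.44, -0.18, 0.15, 0.18 and 0.24 from the group means, and 0.28, -0.27, 0.14, 0.0058 and 0.016 from the means of group and series. None of the 9 called genes reversed its direction in the settings run. Ciart, which was not called in the fit of all 11 libraries (-0.26), was called in the 500s alone, where its log2 fold change was above 0. The 2 libraries of vehicle in the 500s limit what can be read within that series.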
